A study of Saccharomyces cerevisiae with 2 samples.

Results

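Micro-C read pairs in the out-out orientation were followed across nucleosome distances in budding yeast that lacked SWR1. The deposited counts give the number of read pairs at each distance in 4 orientations, with the reads facing in-in, out-out, in-out or out-in by the names of the file, and the out-out counts at 1 to 3300 bp were taken from both swr1Δ libraries of the series. Library A held 381634 out-out pairs among 8804603 read pairs, and library B held 479111 among 7314801. Out-out pairs were thus 4.33% (95% Wilson interval 4.32% to 4.35%) and 6.55% (6.53% to 6.57%) of the libraries. Of these pairs, 366154 in library A (95.9%) and 457347 in library B (95.5%) lay at 1 to 3300 bp.

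Micro-C maps the folding of chromosomes at the scale of single nucleosomes. Crosslinked chromatin is cut with micrococcal nuclease, which digests the linker DNA between nucleosomes and spares the DNA wrapped around the histones, and the ends of nucleosomes that lie close together are then ligated. Each read of a pair has a direction on the chromosome, so that a ligated pair falls into an orientation class that depends on which ends were joined. Because nucleosomes in yeast genes form regular arrays, counts by distance rise and fall with the nucleosome repeat, and the place of the peaks depends on which ends the reads mark. SWR1 encodes the catalytic subunit of SWR-C, the remodeling enzyme that deposits the histone variant H2A.Z at the nucleosomes flanking promoters.

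All libraries were swr1Δ in the W303 background, from cultures in rich medium (YPD) at midlog phase, fixed with formaldehyde and digested until nearly all chromatin was mononucleosomal. Ligated DNA was selected by length on a gel and pulled down through biotin. The labels name 2 replicates and the methods give 3. The header of the counts does not say which library is which replicate, so library A stands for the deeper of the 2. The labels list more than 1 read length and instrument without saying which library had which. Wild-type libraries were not analysed here. With 2 libraries of 1 strain, no test between groups was possible, and values are given for each library or as mean ± SD (n = 2). Intervals cover counting error only and would be too narrow if duplicate pairs remain, since no molecular identifiers were used. The sources used here do not define the orientations, so their names are used as the authors gave them, and in-out and out-in pairs together are called tandem pairs.

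Linker-sized distances, those of at most 82 bp and so below the midpoint of the nominal 165 bp repeat, held slightly more out-out pairs than all longer distances in the range together. They held 194843 pairs in library A, or 53.2% of the out-out pairs up to 3300 bp (95% Wilson interval 53.1% to 53.4%), and 237517 pairs in library B, or 51.9% (51.8% to 52.1%). The mean was 52.6% ± 0.905. The shares differed by more than counting error between the libraries, with library A the higher. Much of this share lay at the very shortest distances, with 26.8% of out-out pairs at 1 to 10 bp in library A and 24.1% in library B. The remaining linker-sized rows, from 11 to 82 bp, held 26.4% and 27.8%, so that library A was higher at the shortest distances and library B was higher from 11 bp on.

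Out-out counts were highest at 2 bp in both libraries, at 17527 pairs in library A and 18382 in library B. They fell steeply from there. At 6 bp library A had 7815 pairs, and at 7 bp library B had 7417, which were the first distances with under 50% of the maximum. At 10 bp the counts were 3970 and 4928, so the maximum was 4.41 times this value in library A and 3.73 times in library B. In-in pairs rose toward the shortest distances by a similar factor, with 4.31 times as many pairs at 1 to 10 bp as at 11 to 20 bp in library A and 3.98 times in library B, against 4.17 and 3.66 times for out-out pairs. Tandem pairs had no such rise, with 50 pairs at 2 bp in library A and 43 in library B, and 35 and 36 at 10 bp.

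The out-out orientation was the most frequent of the 4 at linker-sized distances. Its share of all pairs below 83 bp was 59.3% in library A (95% Wilson interval 59.1% to 59.5%), against 60.1% in library B (59.96% to 60.3%). In-in pairs followed with 28.5% and 25.8%, and in-out and out-in pairs each made up between 5.51% and 7.39%. Leaving out the first 10 bp lowered the out-out share to 46.8% in library A and 49.1% in library B, still above the in-in shares of 34.0% and 29.6%.

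From 20 to 80 bp the out-out counts rose and fell in a regular series of small maxima. Library A had 6 of them, at 24, 35, 45, 55, 66 and 76 bp. Library B also had 6, at 24, 35, 45, 55, 65 and 75 bp, so the first 4 fell on the same base pair in both libraries and the last 2 differed by 1 bp. Successive maxima were 10 or 11 bp apart, and their fitted spacing was 10.4 and 10.1 bp in libraries A and B, close to the helical turn of DNA.

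Measured against the low before it, the maximum at 35 bp stood out most. In library A it held 1896 pairs, against 1136 at the low before it at 29 bp and 1130 at the low after it at 40 bp. In library B it held 2411 pairs, against 1456 at 30 bp and 1549 at 40 bp. The ratio of the maximum to the preceding low was 1.67 in library A (95% counting interval 1.55 to 1.796) and 1.66 in library B (1.55 to 1.77). By the same measure the first maximum, at 24 bp, was the shallowest, with ratios of 1.19 and 1.16, and the last was 1.32 and 1.22 times the low before it. Measured against the low after each maximum, the order was different. These rows were picked as the highest and lowest of their surroundings, so the intervals describe their counts and test nothing.

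**Figure D1:**
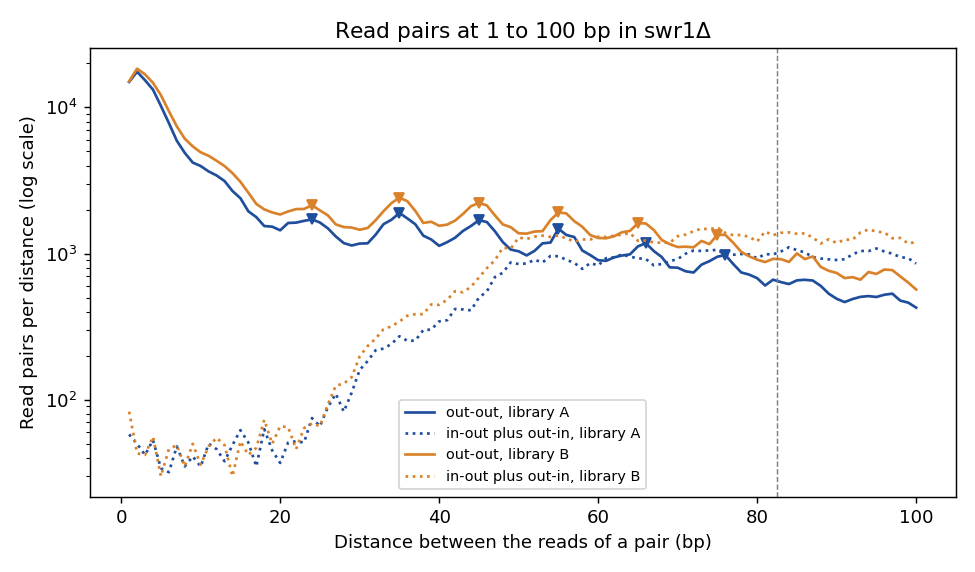
Read pairs (log scale) at each distance from 1 to 100 bp in the swr1Δ libraries, with out-out pairs as solid lines and in-out plus out-in pairs as dotted lines (library A blue, library B orange). Out-out counts peak at 2 bp, triangles mark the 6 small maxima between 24 and 76 bp, and the dashed line marks the upper limit of the linker-sized distances.

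A cosine described this pattern with a period of 10.5 bp (library A) and 10.4 bp (library B) over 11 to 82 bp, after the slow trend had been removed as a running mean over 21 bp. It took up 62.6% and 62.5% of the variance of the detrended log2 counts, with a swing from low to high of 0.48 and 0.45 on the log2 scale. Over 21 to 82 bp, past the steep fall, the period was 10.30 bp in both libraries and the share of variance was 80.6% and 75.9%. Among tandem pairs over 21 to 82 bp, the best period between 8 and 13 bp took up 5.82% (library A) and 9.24% (library B) of the variance. Among in-in pairs the best period between 8 and 13 bp took up 15.2% and 17.0% of the variance, at 10.5 bp in both. The in-in swing at that period, 0.40 and 0.44, was nevertheless not far below the out-out swing of 0.51 and 0.47 over the same distances. With periods from 6 to 20 bp allowed, the best out-out period was still 10.30 bp in both libraries. The best in-in period was then 17.3 bp (library A) and 17.5 bp (library B), with 29.2% and 28.5% of the variance. Whether the in-in swing near 10.5 bp or the tandem swing near 11 bp is a regular oscillation was not tested. Tandem and in-in counts below about 30 bp were lower than out-out counts, so their detrended values carried more counting noise.

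The pattern was weaker at the first nucleosome distance, 83 to 247 bp. There the out-out period was 10.6 bp in both libraries, with a swing of 0.11 in each and 15.5% and 18.8% of the variance. At this distance the tandem pairs had a period of 10.4 bp, with swings of 0.13 and 0.12, and 36.5% and 31.5% of the variance.

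At nucleosome scale the out-out pairs had a clear first peak and 2 lower ones, and each lay at a longer distance than the tandem peak of the same number. After smoothing over 21 bp, the first out-out peak was at 195 bp in library A, with 642 pairs per bp, and at 203 bp in library B, with 866 pairs per bp. It followed a trough at 144 bp in library A, with 257 pairs per bp, and at 143 bp in library B, with 310. The peak was thus 2.50 and 2.79 times the trough, the largest peak-to-trough ratio of the first 5 out-out peaks in each library. The first tandem peak, at 161 and 153 bp, lay between this trough and the first out-out peak.

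The second out-out peak was at 370 and 378 bp, at 189 and 234 pairs per bp. It was 1.197 and 1.203 times the trough before it. This trough was at 336 bp (library A) and 324 bp (library B), near the second tandem peak at 328 and 325 bp. For the tandem pairs the second peak was the most prominent, 2.34 and 2.29 times the trough before it. The third out-out peak was at 520 bp in library A, with 105 pairs per bp, and at 534 bp in library B, with 119 pairs per bp. It was 1.26 and 1.22 times the trough before it.

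The unbroken series of out-out peaks beyond counting error ended at the third. The first 3 peaks stood above their troughs by more than counting error in both libraries, against the first 4 for tandem pairs in both. The fourth out-out maximum, at 687 and 705 bp, had a prominence of 0.09 and 0.06 on the log2 scale, and the fifth, at 860 and 846 bp, had 0.11 and 0.12. The counting error of the smoothed count at these maxima alone was 0.08 to 0.10. Some later maxima again passed the same criterion, so that of the 8 sought it was met by 4 in library A and 6 in library B. These were the maximum at 1397 bp in library A (prominence 0.31) and those at 943, 1139 and 1258 bp in library B (0.16, 0.25 and 0.34). Each was the most prominent maximum of its window, and the maxima of number 8 lay at 1397 and 1258 bp, far apart in the libraries.

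**Figure D2:**
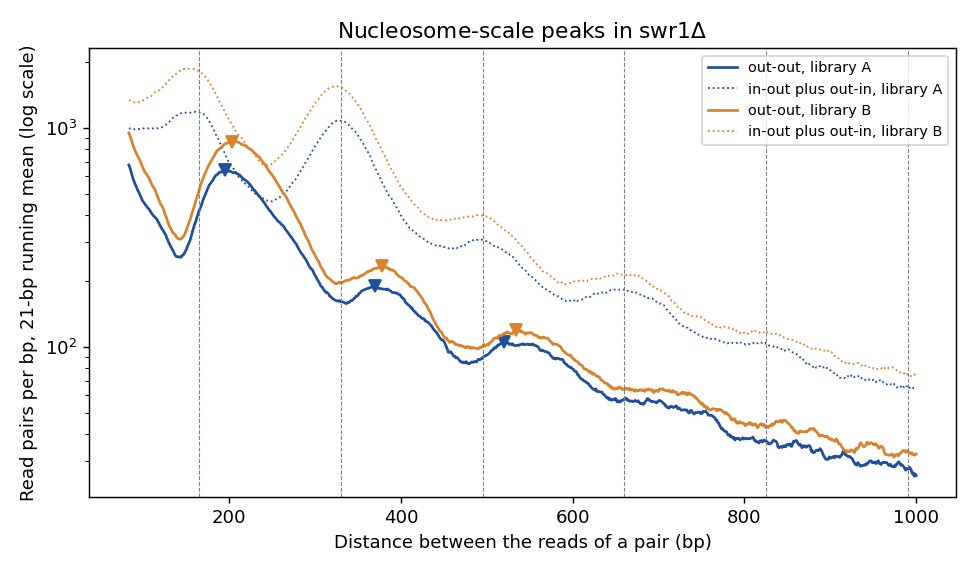
Read pairs per bp (21-bp running mean, log scale) from 83 bp on in the swr1Δ libraries, with out-out pairs as solid lines and in-out plus out-in pairs as dotted lines (library A blue, library B orange). Triangles mark the first 3 out-out peaks, which lie between 195 and 534 bp, and each lies to the right of the dashed line at the matching multiple of 165 bp.

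The offset of the out-out peaks from the tandem peaks was 34, 42 and 34 bp for the first 3 peaks in library A. It was 50, 53 and 44 bp in library B. All 6 offsets were positive and library B was the larger for each peak, with means of 36.7 and 49.0 bp. The fourth peak gave 31 and 53 bp. The fifth gave -28 and 21 bp, and in library A the tandem maximum of that number, at 888 bp, was itself below counting error, with a prominence of 0.05. Over all 5 peaks the offset was therefore 33.4 ± 15.3 bp (22.6 and 44.2 bp), and over the first 4 it was 35.3 and 50.0 bp. On a falling curve, a local maximum is drawn to a shorter distance, and the positions also depended on the smoothing. Over 5 peaks the offset was 16.4 bp (library A) and 50.8 bp (library B) with smoothing over 11 bp. With smoothing over 31 bp it was 34.6 and 37.6 bp, so the offsets are uncertain by more than a few bp.

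A cosine at the nominal period of 165 bp, fitted from 165 to 990 bp, gave the phase without locating single peaks. The out-out maximum lay 57.6 bp past the multiples of 165 bp in library A and 59.2 bp past them in library B. The tandem maximum lay 5.81 and 4.99 bp past them, which put the out-out pairs 51.8 bp behind the tandem pairs in library A and 54.2 bp behind in library B. In-in pairs had their maximum at 129 and 116 bp past the multiples, that is, short of the next one. The in-in peaks of number 3, 4 and 5, at 455, 604 and 785 bp in library A and 440, 607 and 772 bp in library B, came before the tandem peaks of the same number. The first in-in peak did not do so in both libraries. In library A it was at 157 bp, just before the tandem peak at 161 bp. In library B it was at 244 bp, well past the tandem peak at 153 bp. The swing from low to high on the log2 scale was 0.40 and 0.46 for out-out pairs and 0.55 and 0.54 for tandem pairs.

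**Figure D3:**
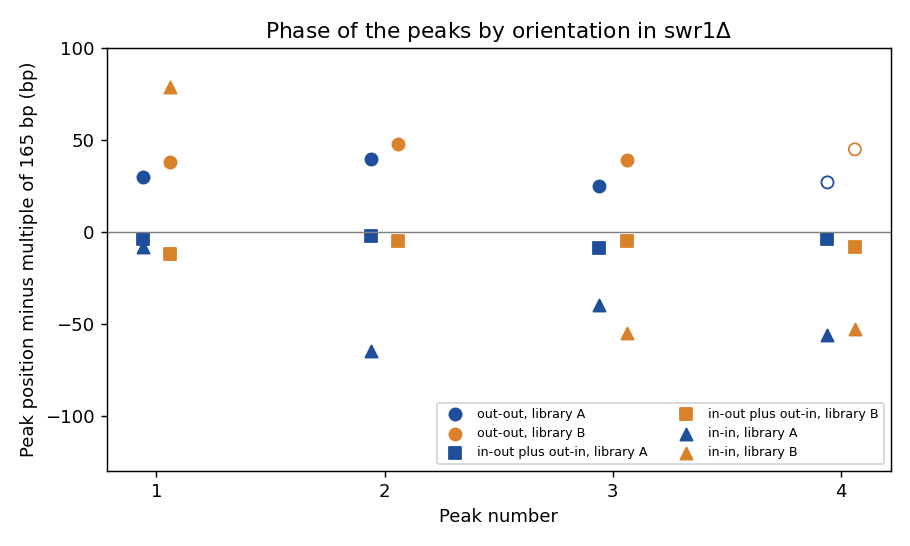
Position of each peak minus the matching multiple of 165 bp (bp) for peaks 1 to 4 in the swr1Δ libraries, with out-out pairs as circles, in-out plus out-in pairs as squares and in-in pairs as triangles (library A blue, library B orange). Out-out peaks lie 25 to 48 bp above the line at 0 and tandem peaks 2 to 12 bp below it, open circles are maxima within counting error, and the second in-in peak of library B was not found.

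The slope of out-out peak position on peak number over 5 peaks was 164.7 bp (library A) and 161 bp (library B) (mean 163 ± 2.40 bp). Each peak was sought within 82 bp of a multiple of 165 bp, which draws the slope toward that value, and the last 2 of the 5 were within counting error. Over the first 3 peaks alone it was 163 and 166 bp. The best cosine had a period of 171 bp in library A but 166 bp in library B. These estimates differed from each other by as much as the libraries did, and no finer value can be read from them.

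Counts were then summed by nucleosome distance, with each row assigned to the nearest multiple of 165 bp and expressed per bp, since the bin of 20 nucleosomes ends at 3300 bp. Out-out pairs fell steeply from the linker-sized rows on. In library A there were 2376 pairs per bp below 83 bp, 467 at 1 nucleosome, 218 at 2, 103 at 3, 38.3 at 5, 11.4 at 10 and 4.22 at 20. In library B there were 2897, 632, 282, 118, 45.2, 14.0 and 5.76. The values fell at all 20 steps in library A and at all but the last in library B, where 478 pairs at 20 nucleosomes gave a slightly higher value per bp than 933 pairs at 19.

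Scaled to all read pairs of the library, the log2 ppm per bp was 8.35 ± 0.39 for linker-sized pairs, 6.08 ± 0.50 at 1 nucleosome, 4.95 ± 0.45 at 2 and 3.78 ± 0.33 at 3. It was 2.37 ± 0.36 at 5 nucleosomes, 0.65 ± 0.40 at 10 and -0.70 ± 0.51 at 20. In this scaling library B was higher at each of the 20 distances, with a median log2 difference of 0.60 (0.45 to 0.73). Scaled to all pairs other than in-in pairs, the direction turned, with a median of -0.083 (-0.23 to 0.045) and 11 of the 20 distances beyond counting error. Scaling to the out-out pairs of each library brings the median close to 0 by construction (0.0017, from -0.14 to 0.13), and 7 of the 20 distances then differed by more than counting error. Which library had more out-out pairs at a given distance was therefore not settled apart from the scaling.

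Between 1 and 20 nucleosomes the log2 value fell by 6.79 in library A (95% counting interval 6.64 to 6.94) and 6.78 in library B (6.65 to 6.91). The drop from linker-sized pairs to 1 nucleosome was 2.35 and 2.20. The bin of 1 nucleosome starts at 83 bp, within the fall from the linker-sized rows, so each fall to or from it includes part of that signal. The next steps were nearly even, with 1.10 and 1.16 from 1 to 2 nucleosomes and 1.08 and 1.26 from 2 to 3. From 3 to 10 nucleosomes the fall was 3.18 and 3.07, and from 10 to 20 it was 1.43 and 1.28. As a power of distance, the counts from 3 to 20 nucleosomes fell with exponents of -1.67 (library A) and -1.59 (library B), steeper from 3 to 10 nucleosomes (-1.86 and -1.78) than from 10 to 20 (-1.47 and -1.32).

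**Figure D4:**
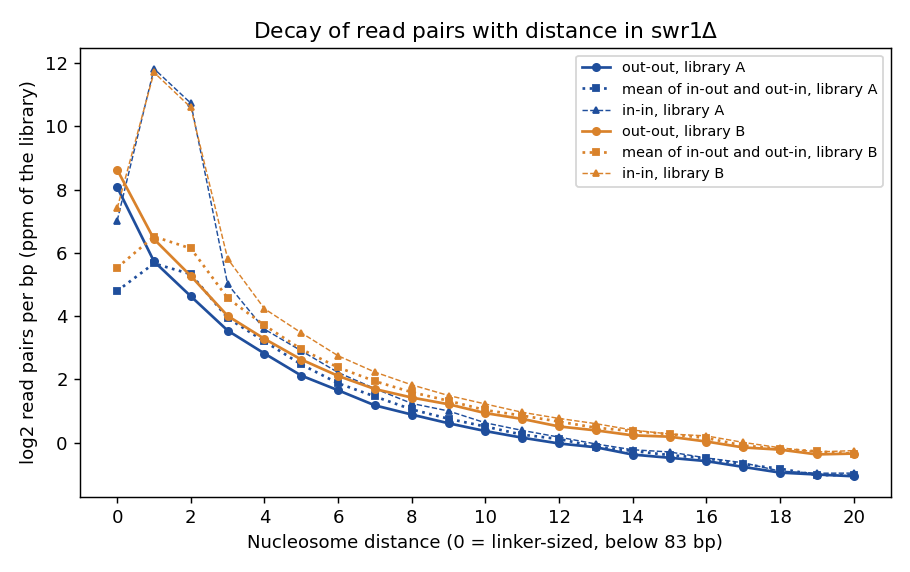
log2 read pairs per bp (ppm of the library) against nucleosome distance from 0 (linker-sized) to 20 in the swr1Δ libraries, with out-out pairs as solid lines, the mean of in-out and out-in pairs as dotted lines and in-in pairs as dashed lines (library A blue, library B orange). Out-out pairs fall from the linker-sized rows on, whereas the other orientations are higher at 1 nucleosome than below it, and all orientations come close together toward 20 nucleosomes.

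The course of this decay differed from that of the tandem pairs at short distance and came close to it at long distance. Tandem pairs were lower per bp below 83 bp than at 1 nucleosome, by 0.87 on the log2 scale in library A and 0.98 in library B. They then fell by 0.34 and 0.38 from 1 to 2 nucleosomes, which was less than the out-out pairs by 0.76 (95% counting interval 0.74 to 0.78) and 0.79 (0.77 to 0.81). From 2 to 3 nucleosomes the order turned, with the tandem pairs falling by 1.39 and 1.57. From 3 to 20 nucleosomes the out-out pairs fell by 4.61 and 4.35 and the tandem pairs by 4.97 and 4.92. The difference was -0.36 in library A (-0.55 to -0.17) and -0.56 in library B (-0.72 to -0.40), so the out-out decay was the shallower in both. From 10 to 20 nucleosomes the difference was -0.11 (-0.31 to 0.09) and -0.10 (-0.27 to 0.08), which was not detectable at this depth.

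Over the whole span from 1 to 20 nucleosomes these parts offset each other. The out-out fall exceeded the tandem fall by 0.10 in library A (95% counting interval -0.08 to 0.28), and in library B the difference was -0.09 (-0.24 to 0.07).

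The same course was seen in the ratio of out-out pairs to the mean of in-out and out-in pairs, which would be 1 if these orientations were equally frequent. Below 83 bp the ratio was 9.71 in library A and 8.55 in library B. At 1 nucleosome it was near 1, at 1.04 (95% counting interval 1.04 to 1.05) and 0.944 (0.937 to 0.951), on opposite sides in the 2 libraries. At 2 nucleosomes it was at its lowest in both libraries, at 0.616 (0.609 to 0.623) and 0.547 (0.541 to 0.553). It was 0.760 and 0.678 at 3 nucleosomes, 0.783 and 0.796 at 5, 0.906 and 0.936 at 10, and 0.975 and 1.001 at 20.

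From 3 to 12 nucleosomes all 10 distances had a ratio below 1 by more than counting error in each library. From 13 to 20 nucleosomes the ratio lay between 0.917 and 1.01 in library A and between 0.911 and 1.001 in library B, and its interval held 1 at 6 of these distances in each. Of these 16 values 14 were still below 1, and the intervals were wider than at shorter distances because fewer pairs were counted. The out-out bins depend on the phase as well as on the number of contacts, because the same bin edges were used for every orientation and the first 3 out-out peaks lay 25 to 48 bp past the bin centers. The part of this shift in the ratios at 1 to 3 nucleosomes was not tested. The in-out and out-in counts differed from each other by at most 0.12 on the log2 scale in library A over 1 to 20 nucleosomes, and by at most 0.26 in library B.

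**Figure D5:**
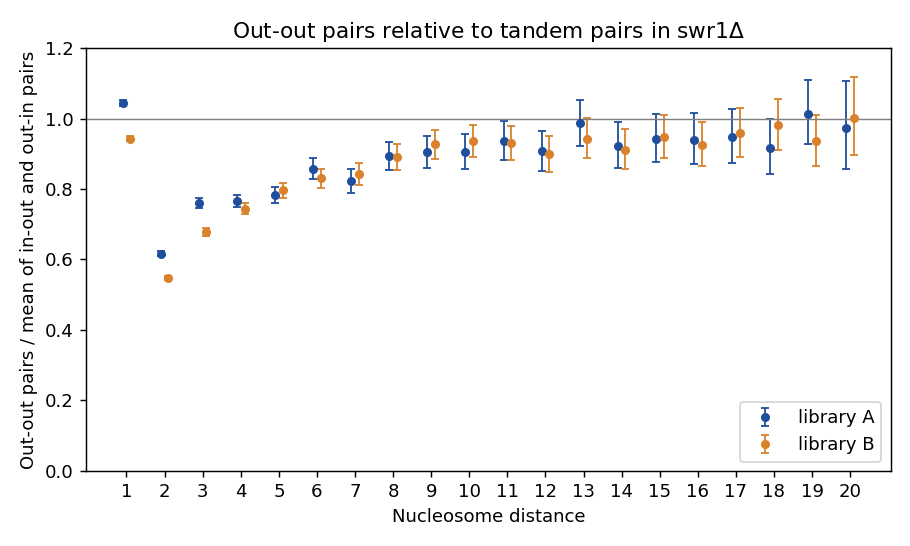
Out-out pairs divided by the mean of in-out and out-in pairs at 1 to 20 nucleosomes in the swr1Δ libraries, with 95% counting intervals as bars (library A blue, library B orange). The ratio is lowest at 2 nucleosomes, at 0.616 and 0.547, and rises slowly toward the line at 1, with 14 of the 16 values from 13 nucleosomes on still below it.

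As a share of all 4 orientations, out-out pairs were lowest at 1 and 2 nucleosomes, where in-in pairs made up most of the total although out-out pairs per bp were higher there than at 3 nucleosomes. They were 1.41% of pairs at 1 nucleosome in library A and 2.39% in library B, and 1.37% and 2.23% at 2 nucleosomes. The share then rose to 15.6% and 13.4% at 3 nucleosomes, 19.0% and 18.8% at 5, and 22.7% and 22.9% at 10. At 20 nucleosomes the shares were 24.3% (95% Wilson interval 22.1% to 26.5%) and 24.6% (22.7% to 26.6%), and both intervals held the 25% of an equal split among the 4 orientations.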

How the data were processed

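Micro-C was performed by the authors on swr1Δ yeast, and 2 libraries were analysed here. The authors deposited counts of read pairs at each distance from 1 to 10000 bp for 4 orientations, without normalization. The submitters' processing notes name CASAVA 1.8.2, Bowtie2 and the sacCer3 build, and duplicate removal is not given in the sources used here. The line of column totals was left out, and 0 sample columns were unused. A deposited table of gene scores was not used.

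Bins, lists and measures were chosen with earlier results of these data known. Rows were assigned to the nearest multiple of 165 bp. Peak positions were the most prominent local maxima of log2 counts smoothed over 21 bp, within 82 bp of each multiple. A peak was beyond counting error when its prominence exceeded the 95% error of the difference. Distances named were the peaks and troughs up to the fifth, the linker-sized rows, the rows of highest count and 1, 2, 3, 5, 10 and 20 nucleosomes, and 19 nucleosomes, the small maxima below 83 bp and the in-in peaks were named after their values were seen. Intervals are 95% Wilson intervals for shares and Poisson counting intervals for ratios, and a share of 0 would allow 3 counts. The functions were tested on simulated data. Other smoothing, bins, limits and scalings were tried. The work was done in Python 3.11.15 with scipy 1.17.1, numpy 2.4.6, matplotlib 3.10.9 and pandas 2.3.3.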

Additional observations from a re-analysis of the deposited data

Results flagged for a closer look

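Out-out pairs were also counted beyond the distances described above, from 3300 bp to the last deposited distance of 10000 bp. There were 15480 such pairs in library A, 4.06% of its out-out pairs, and 21764 in library B, 4.54%. This signal lies outside the 20 nucleosome distances and entered no comparison.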

How the results depend on the processing

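Across 44 alternative settings, 20 values stayed within the spread of the libraries, 20 moved and 4 changed direction. These counts include the settings that left a library out, which with n = 2 give the value of the other library alone. Such values restate the spread between the libraries and are no check of the processing. The linker-sized share, 52.6%, was 36.4% from 11 bp on, 50.3% over all deposited distances and 47.0% with a limit at 60 bp, and 51.9% to 53.2% when each library was left out. The repeat length, 163 bp, was 158 bp with smoothing over 31 bp, 156 bp over 8 peaks and 168.5 bp from the cosine, and 161.3 to 164.7 bp with a library left out. The offset from tandem peaks, 33.4 bp, was 53.0 bp from the cosines and 22.6 to 44.2 bp with a library left out. The decay from 1 to 20 nucleosomes, 6.78, was 8.28 with bin edges from 1 bp, which put the linker-sized pairs into the bin of 1 nucleosome. It was 6.82 and 6.92 with repeats 5 bp shorter and longer, 6.87 with the last bin in full, 5.65 from 2 nucleosomes, 9.06 from linker-sized pairs and, in a span added after the data were seen, 4.48 from 3 nucleosomes, and 6.78 to 6.79 with a library left out. The decay minus that of tandem pairs, 0.0074, was 1.74 with edges from 1 bp, -0.77 from 2 nucleosomes and -5.59 against in-in pairs, and -0.085 to 0.0998 with a library left out, so it had no settled sign. The fine period, 10.45 bp, was 10.30 bp from 21 bp on, 10.55 bp with a trend over 31 bp and 10.26 bp as the mean spacing of maxima (added after the data were seen), and 10.4 to 10.5 bp with a library left out. The log2 ratio of the libraries, 0.60, was 0.0017 scaled to out-out pairs, -0.083 scaled to pairs other than in-in and 0.58 with edges from 1 bp. The first 3 peaks alone were also added after the data were seen. Where the construction of a setting does not show the cause, the cause was not tested.

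No paired analysis was possible because there is only 1 group. Depth limits the far distances most, with 350 and 478 out-out pairs at 20 nucleosomes and a median of 12 and 15 pairs per bp over the range.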
